A study of Drosophila melanogaster with 6 samples.

Results

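*Fbp1*, *Fbp2*, *Lsp1alpha*, *Lsp1beta*, *Lsp1gamma*, *Lsp2* and *fat-spondin* are genes of the larval fat body, and their transcripts were followed on the 6 arrays of this study. These 7 genes were listed by name, and a probe set (the group of short oligonucleotides that reads a transcript) was taken for a gene where the platform annotation gives that gene's symbol alone. This held for 4 of the 7 genes, each with 1 probe set, among 11982 genes read in all. *Lsp1alpha*, *Lsp1beta* and *Lsp1gamma* have no such probe set in the annotation used and are not analysed here.

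RNA of eye imaginal discs from wandering larvae, late in the third instar, was hybridized to Affymetrix arrays, 3 for the *mir-998* mutant (genotype w; mir-998[exc222]) and 3 for wild type (w1118). Flies of both genotypes were kept on the usual food. The mutant allele is an imprecise excision that leaves a piece of a *P* element inside the *mir-998* hairpin, within an intron of *dE2f1*, and it was represented by 1 line. How many discs went into each RNA sample is not given in the sources used here, and nor is whether both stocks shared a genetic background.

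The fat body of the larva is the storage and secretory tissue that carries out work done by liver and adipose tissue in vertebrates. In the third instar it secretes the larval serum proteins into the hemolymph in large amounts, and around pupariation it takes them back up and stores them, a switch that the steroid hormone ecdysone controls. An eye disc is an epithelium bathed in hemolymph, and it is not known as a site of larval serum protein synthesis.

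The log2 values below are the authors' rma values, in which a difference of 1 is a 2-fold difference in signal. Medians of the 6 arrays were 5.25 to 5.30, and the bacterial *trp* control probe sets, which read no fly transcript, averaged 3.63 to 3.72. With 3 arrays in each genotype, the number of arrays limits the precision. Markers of the labelled tissue were present on every array: of 17 measured eye disc genes none had a mean log2 value under the array median, with *toy* at 12.2 and *eya* at 11.45. Wild type replicate 3 had the lowest of the 3 wild type values for 12 of these 17 genes, among them *sev*, the Sevenless receptor, at 7.50 against 9.04 and 9.10 on the other wild type arrays.

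The signals of *Lsp2*, *Fbp1* and *Fbp2* differed by 5.78-fold to 14.3-fold among arrays of the same genotype and did not differ between genotypes beyond that spread. In both genotypes replicate 1 was the highest array for these 3 genes and replicate 3 the lowest. *fat-spondin* behaved otherwise: it varied less within each genotype, its highest array was replicate 3 in both genotypes, and its mutant values lay above its wild type values.

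*Lsp2* encodes larval serum protein 2, a storage hexamerin. Its log2 values were 10.56, 7.84 and 6.82 in mutant replicates 1, 2 and 3, against 11.17, 9.11 and 7.90 in wild type replicates 1, 2 and 3. The genotypes overlapped, since mutant replicate 1 exceeded wild type replicates 2 and 3. The range was 3.74 among mutant arrays, a 13.4-fold difference in signal, and 3.27 among wild type arrays, a 9.65-fold difference.

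*Fbp1* encodes a protein related to the hexamerins that serves as the receptor through which fat body cells take up larval serum protein 1. Its log2 values were 9.78, 7.31 and 5.94 in mutant replicates 1, 2 and 3, against 9.70, 7.12 and 5.90 in wild type replicates 1, 2 and 3. Both genotypes covered nearly the same interval, and the ranges were 3.84 in the mutant (14.3-fold) and 3.80 in wild type (13.9-fold).

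*Fbp2* encodes a fat body protein related in sequence to alcohol dehydrogenase. It stood at log2 values of 7.93, 5.79 and 5.40 in mutant replicates 1, 2 and 3, against 8.99, 6.61 and 5.69 in wild type replicates 1, 2 and 3. Replicate 1 again stood apart from the others, and the lowest arrays were close to the array median. The range was 2.53 in the mutant (5.78-fold) and 3.30 in wild type (9.85-fold).

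*fat-spondin* encodes a secreted protein of the spondin family. Its log2 values were 7.80, 7.58 and 8.30 in mutant replicates 1, 2 and 3, against 6.92, 5.71 and 7.28 in wild type replicates 1, 2 and 3. Every mutant value was above every wild type value, and wild type replicate 2 was the lowest of all. The range was 0.72 among mutant arrays and 1.57 among wild type arrays.

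**Figure D1:**
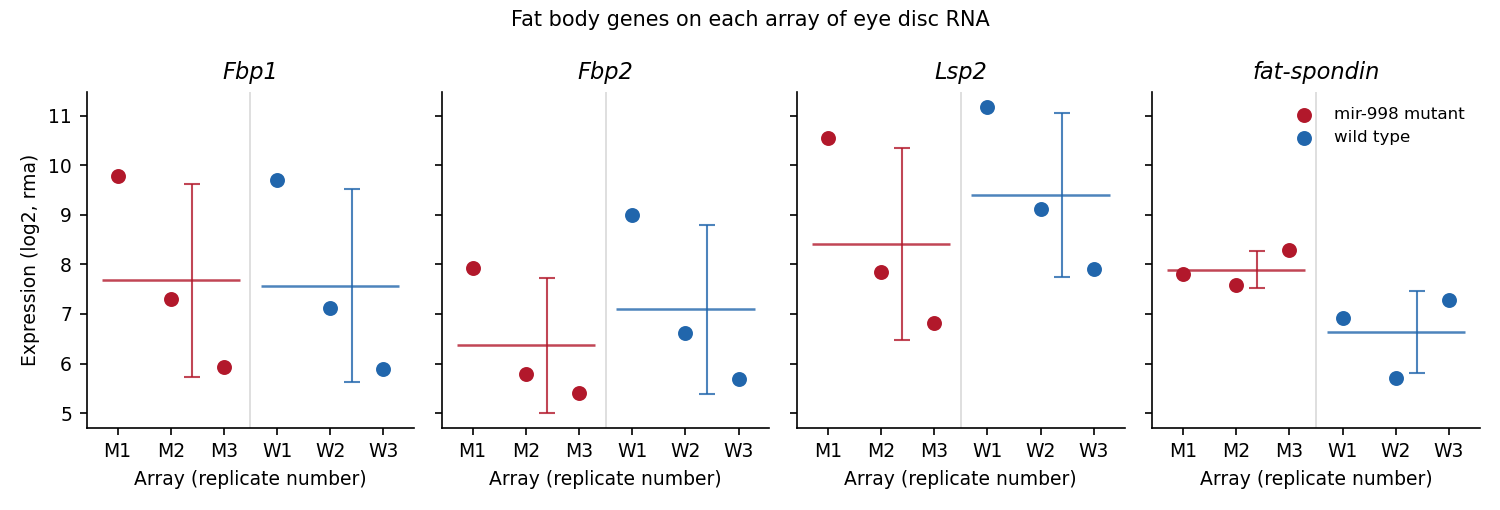
Log2 expression (y axis) of *Fbp1*, *Fbp2*, *Lsp2* and *fat-spondin* on each array (x axis), with mutant arrays M1 to M3 on the left and wild type arrays W1 to W3 on the right of each panel. Points are arrays, lines are means and bars are SD over 3 arrays; *Fbp1* lies at 9.78, 7.31 and 5.94 in the mutant and 9.70, 7.12 and 5.90 in wild type, while *fat-spondin* does not overlap between genotypes.

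Such ranges were rare on these arrays. A range of at least 2 on the log2 scale was found for 3 of the 4 genes among mutant arrays, against 0.213% of the 18769 tested probe sets, and for the same 3 genes among wild type arrays, against 0.49% of probe sets. Both conditions together held for 0.16% of probe sets. By range, *Fbp1* ranked 7 of 18769 among mutant arrays and 9 among wild type arrays, *Lsp2* ranked 8 and 24, *Fbp2* ranked 27 and 22, and *fat-spondin* ranked 360 and 177. A range of at least 1 was reached by the same 3 genes in the mutant, where 0.826% of probe sets reached it, and by all 4 genes in wild type, where 3.99% did.

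**Figure D2:**
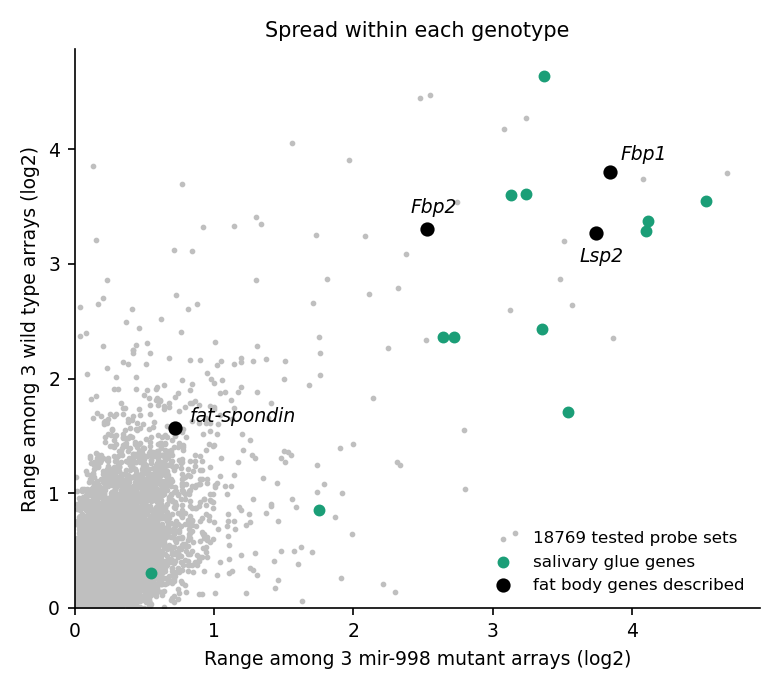
Range of log2 values among the 3 mutant arrays (x axis) and among the 3 wild type arrays (y axis) for the 18769 tested probe sets (grey), the salivary glue genes (green) and the 4 fat body genes (black). *Fbp1*, *Lsp2* and *Fbp2* lie among the widest ranges in both genotypes, at 3.84, 3.74 and 2.53 in the mutant and 3.80, 3.27 and 3.30 in wild type, and *fat-spondin* lies at 0.72 and 1.57.

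The order of the arrays was shared as well. Replicate 1 was highest and replicate 3 lowest in both genotypes for *Fbp1*, *Fbp2* and *Lsp2*, an order that 7.42% of all probe sets had (17.1% had replicate 1 highest in both). The sources used here do not say whether arrays of the same number were handled together, so no cause is read from the shared number. With a range of at least 2 in each genotype asked for too, a combination chosen after the values were seen, 8 probe sets or 0.0426% were left. They were those of *Fbp1*, *Fbp2*, *Lsp2*, *apolpp*, *Obp99b* and *CG34166* and 2 probe sets that are unnamed here. *apolpp* encodes the apolipophorin precursor, the main lipoprotein that the fat body secretes, and *Obp99b* encodes a member of the odorant-binding protein family.

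The likeness of other genes to these profiles was measured on values centred on each gene's own genotype means, as the root mean square difference, over the 6 arrays, from the median profile of the 4 genes. That median profile stood at 1.83, -0.47 and -1.28 on mutant replicates 1, 2 and 3, and at 1.84, -0.47 and -1.45 on wild type replicates 1, 2 and 3. The difference was 0.18 for *Fbp2*, 0.20 for *Lsp2* and 0.27 for *Fbp1*, against 1.50 for *fat-spondin* and a median of 1.36 over all probe sets. A gene with no variation among arrays would stand at 1.35. *Fbp1*, *Fbp2* and *Lsp2* thus moved together from array to array and *fat-spondin* did not move with them. The 4 genes are themselves part of the profile, so their own differences describe how they vary among themselves.

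Outside the 4 genes, *apolpp* was nearest to the profile, at 0.24. Its log2 values were 8.38, 5.66 and 5.26 in mutant replicates 1, 2 and 3, against 8.31, 6.29 and 5.71 in wild type replicates 1, 2 and 3, so that replicate 1 was more than 2 units above replicate 2 in each genotype. *CG34166* followed at 0.30, on a probe set of the kind whose oligonucleotides can match several transcripts, and *Obp99b* at 0.40. *Obp99b* had log2 values of 10.57, 7.72 and 6.49 in mutant replicates 1, 2 and 3, against 10.24, 8.46 and 6.50 in wild type replicates 1, 2 and 3. No other named gene lay within 0.5. The next were *CG2233* at 0.76, *Obp56a*, another odorant-binding protein gene, at 0.81, *fon*, which encodes the hemolymph clotting protein Fondue, at 0.83, *elm* at 0.85, *CG12116* and the larval cuticle gene *Lcp9* at 0.87 each, and *CG15369* at 0.90. All 10 had replicate 1 as the highest array in both genotypes, which the choice by likeness to this profile largely fixes.

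**Figure D3:**
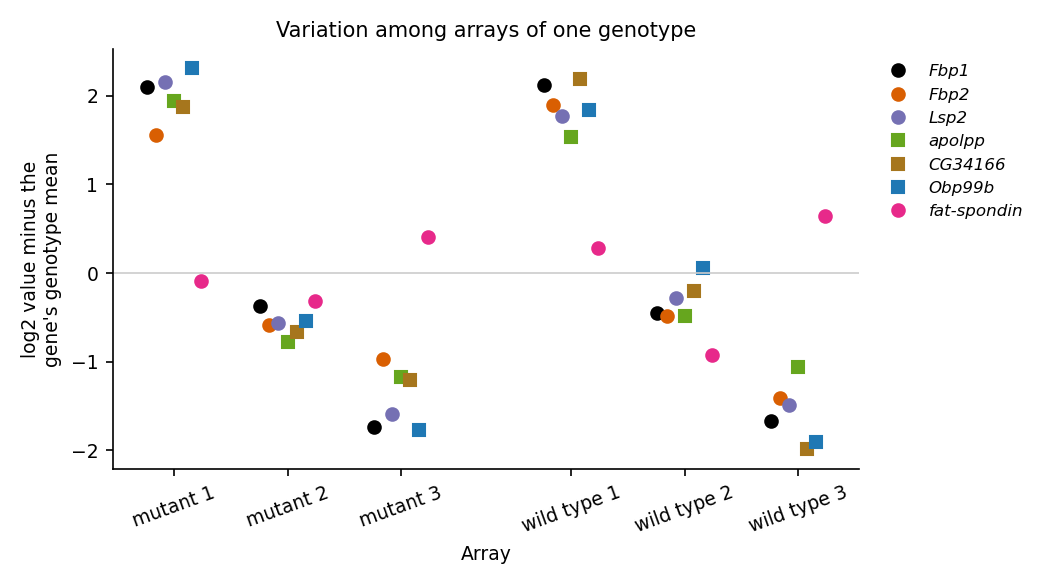
Log2 values minus the gene's genotype mean (y axis) on mutant replicates 1 to 3 and wild type replicates 1 to 3 (x axis). Circles are the 4 fat body genes and squares the 3 genes nearest to their median profile; *Fbp1*, *Fbp2*, *Lsp2*, *apolpp*, *CG34166* and *Obp99b* are high on replicate 1 and low on replicate 3 of each genotype, and *fat-spondin* is not.

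Between genotypes none of the 4 genes passed the test, which was limma over 18769 probe sets with Benjamini-Hochberg adjustment and a threshold of 0.05. At that threshold 1.6% of all probe sets were called, 0.783% higher and 0.815% lower in the mutant. *Lsp2* averaged 8.41 ± 1.93 in the mutant and 9.39 ± 1.65 in wild type (SD, n = 3 each), a log2 difference of -0.99 with a standard error of 1.16 (adjusted p = 0.853, limma). *Fbp2* averaged 6.37 ± 1.36 in the mutant and 7.10 ± 1.70 in wild type (SD, n = 3 each), a log2 difference of -0.72 with a standard error of 0.99 (adjusted p = 0.882, limma). *Fbp1* averaged 7.68 ± 1.95 in the mutant and 7.57 ± 1.94 in wild type (SD, n = 3 each), a log2 difference of 0.10 with a standard error of 1.25 (adjusted p = 0.989, limma). These 3 differences were smaller than the SD among arrays of either genotype.

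The arrays did not bound these differences closely. The 95% interval of the mutant signal over wild type ran from 0.134-fold to 8.59-fold for *Fbp1*, from 0.0736-fold to 3.46-fold for *Lsp2* and from 0.116-fold to 3.16-fold for *Fbp2*. A change of several fold in either direction would therefore not have been detectable for these genes in this fit, which has no covariate. The difference of *Lsp2* was -2.06 without mutant replicate 1 and -0.19 without mutant replicate 3, and it was -0.10 without wild type replicate 1 and -1.73 without wild type replicate 3. Adjusted p-values of these 4 limma fits were 0.539 to 0.994, and the size of the difference thus rests on the replicate 1 and replicate 3 arrays of both genotypes.

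*fat-spondin* had the smallest standard error of the 4 genes. It averaged 7.89 ± 0.37 in the mutant and 6.64 ± 0.82 in wild type (SD, n = 3 each), a log2 difference of 1.26 (95% interval 0.26 to 2.25) with a standard error of 0.41, or 2.39-fold. Its unadjusted p in limma was 0.0206, a level under 0.05 that 11.8% of all probe sets reached, and its adjusted p was 0.285. Mutant values above all wild type values were found on 7.97% of probe sets, and the reverse on 8.07%, shares against which 1 gene of 4 does not stand out. Without wild type replicate 2 the difference was 0.79 (adjusted p = 0.311, limma). With 3 arrays in each genotype the smallest two-sided p of an exact permutation test is 0.1. The median difference of the 4 genes was -0.31, against -0.0033 over all probe sets.

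**Figure D4:**
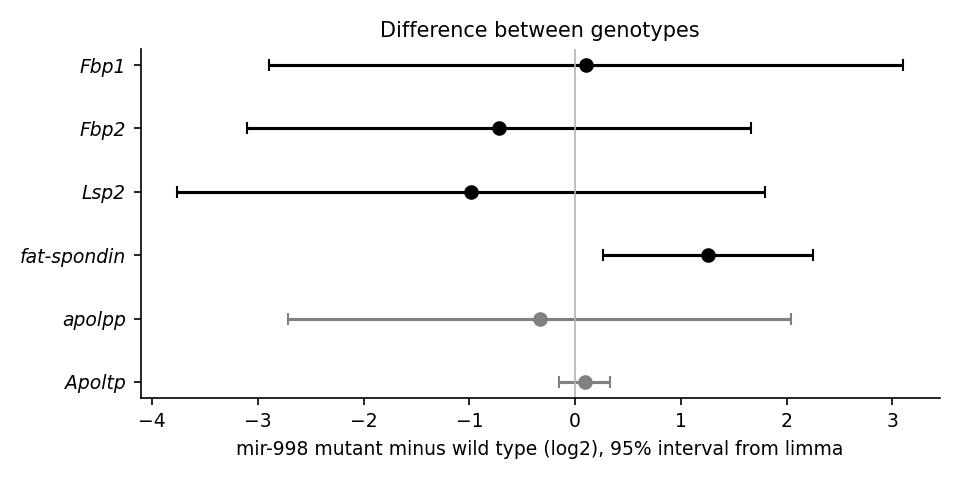
Log2 difference, mutant minus wild type (x axis), with its 95% interval from limma, for the 4 fat body genes (black) and the fat body lipoprotein genes *apolpp* and *Apoltp* (grey). The intervals of *Fbp1*, *Fbp2*, *Lsp2* and *apolpp* span several units around 0, and that of *fat-spondin* runs from 0.26 to 2.25.

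Because *Fbp1*, *Fbp2* and *Lsp2* moved together, the change of each relative to the others could be followed within arrays, in a comparison chosen after the values were seen. Subtracting *Fbp1* from *Lsp2* on each array removes only what shifts both by the same log2 amount. The subtraction left a spread of 0.35 among mutant arrays and 0.53 among wild type arrays, where each gene alone spanned more than 3. This within-array difference was 1.09 log2 units lower in the mutant than in wild type, and its genotypes did not overlap, with a gap of 0.59 between the nearest arrays. Relative to the wild type mean it stood at -1.04, -1.29 and -0.94 on mutant replicates 1, 2 and 3, against -0.35, 0.17 and 0.18 on wild type replicates 1, 2 and 3. Of the 6 pairs that the 4 genes form it was the only pair without overlap. Single probe sets failed to overlap in 7.97% (higher in the mutant) and 8.07% (lower) of cases, the share over all pairs of genes was not computed, and nothing is read from this pair standing apart. The same difference for *Fbp2* over *Fbp1* was 0.83 lower in the mutant, with a spread of 1.31 among mutant arrays and 0.50 among wild type arrays and with overlapping genotypes. No test was run on these pairs, and a ratio within an array does not say which of its genes changed.

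A further list of fat body genes, 30 measured of 38, held no called gene, against 1.6% of all probe sets. Of the 30, 7 had an unadjusted p under 0.05 in limma, against 11.8% of all probe sets. This list holds many enzymes and secreted proteins that other tissues also make. Its summed signal (linear signal added over genes) was 25890 to 26799 on mutant arrays and 27277 to 29061 on wild type arrays, ranges that do not overlap. Such a sum is weighted to the brightest genes, and the median log2 difference of the list was -0.02. Its brightest genes, *Idgf4*, an imaginal disc growth factor, and *Cat*, catalase, averaged log2 values of 11.7 each over the 6 arrays. The median range of the 30 genes was 0.22 in the mutant and 0.35 in wild type, against 3.14 and 3.29 for the 4 fat body genes. *apolpp* was the only gene of the 30 with a range of at least 2 in both genotypes. Replicate 1 was highest and replicate 3 lowest in both genotypes for 4 of the 30, against 7.42% of all probe sets. They were *apolpp*, the lipase gene *Lip4* and the growth-blocking peptide genes *Gbp1* and *Gbp2*. *Lip4* stood at 6.14, 6.05 and 5.87 in mutant replicates 1, 2 and 3, against 7.10, 6.45 and 5.54 in wild type replicates 1, 2 and 3.

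Among the defining fat body markers, *apolpp* followed *Lsp2* and *Fbp1*, while *Apoltp*, which encodes the lipid transfer particle, stayed at 4.97 to 5.09 in the mutant and 4.81 to 5.12 in wild type, under the median of the arrays. *Adh* and *plin1* were not analysed here, for want of a probe set with their symbol alone. The yolk protein genes, which the adult female fat body expresses, were dim, with *Yp2* at 5.74, *Yp3* at 4.78 and none of the 3 called. In bulk RNA, fewer fat body cells and less RNA per cell cannot be told apart, and whether fat body cells were present in the dissected samples was not tested.

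Genes of other tissues were set beside these values. The hemocyanin family, to which the hexamerins belong, also holds the phenoloxidases of blood cells. *PPO1* and *PPO2* differed by 1.38 and 1.11 on the log2 scale, mutant minus wild type, neither called (adjusted p = 0.119 and 0.118, limma), and with *PPO3* their median range was 0.18 in the mutant and 1.04 in wild type, where replicate 1 was the highest of the 3 arrays for the list (0.44 above the genotype mean). Salivary glue genes, a product of another larval secretory tissue, were the only other list with wide ranges, a median of 3.30 in the mutant and 2.86 in wild type. Of these 12 genes 9 had a range of at least 2 in both genotypes, against 0.16% of all probe sets. Their summed signal was 9325 to 70975 in the mutant and 11224 to 51041 in wild type, and none was called. Mutant replicate 1 was high for glue genes and for fat body genes alike, at list medians of 1.998 and 1.83 above the genotype means. In wild type the arrays ran the other way, since replicate 1 was the lowest for glue genes (-1.55) and the highest for fat body genes (1.84). The part of salivary gland RNA in the values of *Lsp2*, *Fbp1* and *Fbp2* was not tested, and nor was that of the lower eye disc markers on wild type replicate 3.

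*fat-spondin* was compared with other genes in the same way, a step added after its profile was seen. The nearest 10 named genes, at root mean square differences of 0.12 to 0.22, were *Mec2*, *CG14629*, *CG5399*, *Gal*, *CG1092*, *NtR*, *Glt*, *kar*, *CG31777* and *yellow-f*. *Glt* encodes glutactin, a glycoprotein of basement membranes. *kar*, a gene of eye pigmentation, is also in the further list of fat body genes. Its log2 values were 8.58, 8.36 and 8.91 in mutant replicates 1, 2 and 3, against 7.83, 7.17 and 8.10 in wild type replicates 1, 2 and 3. Like *fat-spondin* it was lowest on wild type replicate 2 and highest on mutant replicate 3, which the choice by likeness to that profile fixes in part. A gene with no variation among arrays would stand at 0.52 from the *fat-spondin* profile, and the median over all probe sets was 0.52. The 15 hemocyte markers stood at 0.29 to 0.64, with a median of 0.42. The nearest of them was *srp*, a GATA factor of fat body and blood cells, and the farthest was *lz*, a transcription factor of crystal cells. Of the 15 hemocyte markers 6 had an unadjusted p under 0.05 in limma, against 11.8% of all probe sets, and 1 was called, against 1.6%. It was *NimC1*, a phagocytosis receptor, which was 1.64 log2 units higher in the mutant (standard error 0.26, adjusted p = 0.0369, limma). The median difference of the list was 0.49. The summed signal of the hemocyte markers was 6527 to 8567 on mutant arrays and 4465 to 5653 on wild type arrays, ranges that do not overlap. Sums did not overlap either for the phenoloxidases, higher in the mutant, but *PPO1* and *PPO2* of that list are hemocyte markers too. No other list had a sum wholly higher in the mutant. The sums of the further fat body list and of the dim yolk protein genes were wholly lower in the mutant. *srp*, *PPO1*, *PPO2* and *lz* are in the hemocyte list as well as in others, *lz* in that of eye disc genes. The part of blood cell RNA in the difference of *fat-spondin* was not tested.

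RNA quality also differed among arrays. The arrays carry control probe sets near the 3′ and the 5′ end of actin, GAPDH and eIF-4a transcripts, and the 3′ signal exceeds the 5′ signal more where RNA or labeled product is shorter. This excess was 1.61 to 2.71 log2 units on mutant replicate 1, 1.53 to 2.21 on mutant replicate 2 and 2.17 to 3.03 on mutant replicate 3. In wild type it was 0.80 to 0.99 on replicate 1, 1.63 to 2.03 on replicate 2 and 2.11 to 2.70 on replicate 3. Replicate 3 thus had the largest excess for each control in both genotypes and was also the lowest array for *Lsp2*, *Fbp1* and *Fbp2*. The smallest excess fell on replicate 2 in the mutant, where those genes were not highest, and on replicate 1 in wild type, where they were. The middle probe set of the small ribosomal subunit RNA was lowest on mutant replicate 1, at 10.5 against 11.7 to 12.1 on the other 5 arrays. The part of RNA quality in the values of the 4 genes was not tested.

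**Figure D5:**
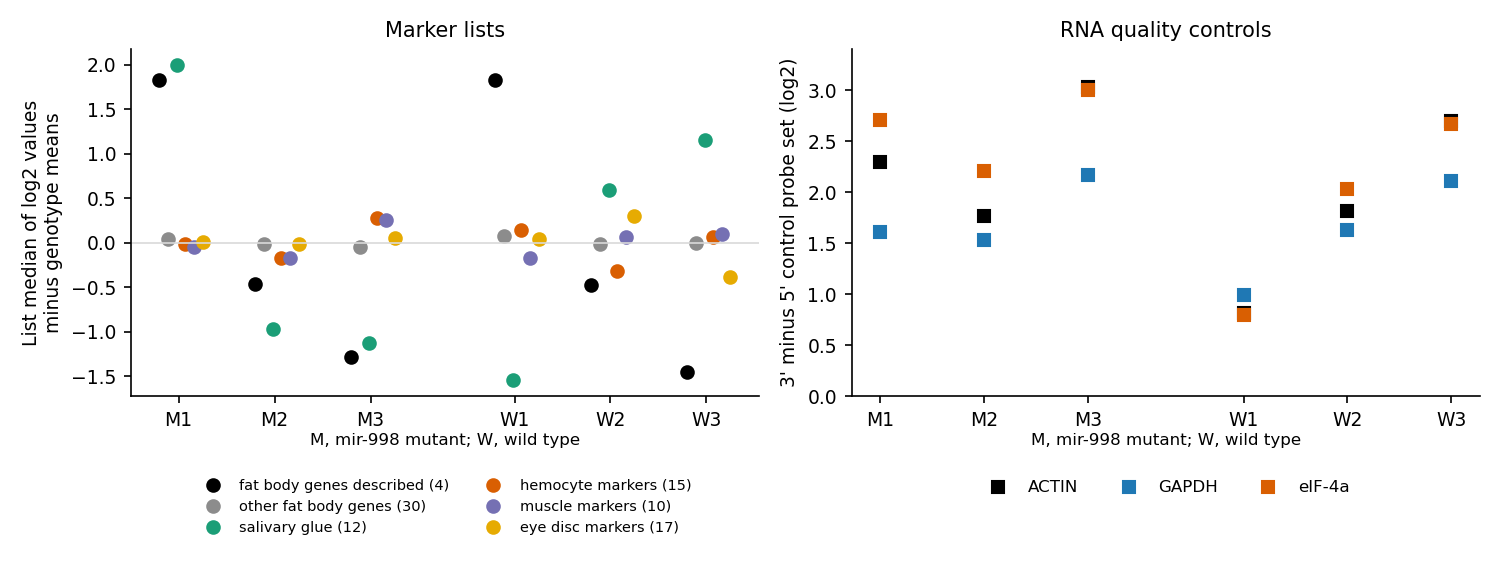
Left, the median over each gene list of log2 values minus genotype means (y axis) on mutant arrays M1 to M3 and wild type arrays W1 to W3 (x axis); fat body genes stand at 1.83 on M1 and 1.84 on W1, glue genes at 1.998 and -1.55. Right, the excess of the 3′ over the 5′ control probe set (log2, y axis) for 3 transcripts on the same arrays, largest on M3 and W3 and smallest on M2 and W1.

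Ecdysone response genes, which include the hormone receptor that acts on *Fbp1*, had a far smaller median range among arrays than the 4 fat body genes. The list holds 19 measured genes, among them *dib*, *sad* and *shd*, which are genes of hormone synthesis. Of the 19, 10 had an unadjusted p under 0.05 in limma, against 11.8% of all probe sets. The median difference of the list was 0.27. At the adjusted threshold, which 1.6% of all probe sets passed, 2 were called, *MsrA* and *Eip93F*, both higher in the mutant, by 0.88 (standard error 0.08, adjusted p = 0.00381, limma) and 1.08 (standard error 0.17, adjusted p = 0.0382, limma). None of the 19 had replicate 1 as the highest array in both genotypes, against 17.1% of all probe sets. Their median range was 0.30 in the mutant and 0.54 in wild type. Some were less steady in wild type, with ranges of 1.76 for *Hr4*, 1.40 for *Hr3*, 1.38 for *sad*, 1.24 for *ImpE1* and 1.12 for *ftz-f1*. A wild type range of at least 1 was found for 3.99% of all probe sets. Among wild type arrays *ftz-f1* was lowest on replicate 3, and *Hr4*, *Hr3*, *sad* and *ImpE1* were highest there. The receptor gene *EcR* and its partner *usp* were not called (adjusted p = 0.819 and 0.782, limma).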

How the data were processed

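RNA of eye imaginal discs was measured on 6 arrays, 3 of the *mir-998* mutant and 3 of wild type, grouped by the sample titles. The authors deposited log2 expression values that came from rma in the affy package (background correction, normalization to a common distribution, summary of each probe set). The values have 2 decimals, and no intensity was used here.

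Of 18952 probe sets, 183 Affymetrix controls were left out and 18769 entered the limma model (version 3.58.1 under R 4.3.3, lmFit and eBayes), mutant minus wild type, with no covariate, and adjusted by Benjamini-Hochberg. The fit was tested on simulated data. A platform annotation, with symbols updated through RefSeq Release 6, named 1 gene for 13647 probe sets, several for 402, and left 4720 unnamed. A gene was read from its brightest probe set. No coordinates or sequences are given, since the study used another release and no sequence was used here.

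The genes and lists were chosen with earlier results of these data known. The text names every fat body gene of the set and the 10 genes nearest in profile. For each other list it names the called genes or otherwise the 2 brightest. Named besides, after their values were seen, were *sev*, *EcR*, *usp*, *Hr3*, *Hr4*, *ImpE1*, *ftz-f1*, *dib*, *sad*, *shd*, *Lip4*, *Gbp1*, *Gbp2*, *PPO3*, *Apoltp*, *srp*, *lz*, *Tsf1*, *sug*, *Jon65Aiv* and the neighbours of *fat-spondin*. Arrays are called biological replicates without separate crosses being named, so p-values reflect only how far these samples spread, part of which may be technical. No 2 arrays shared more than 845 identical values. The alternatives were leaving out each array, blocking on the replicate number, a further quantile normalization, median centring, a robust trended eBayes, weights for arrays, removal of dim probe sets, other rules for choosing a gene's probe set, and a threshold of 0.01.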

Additional observations from a re-analysis of the deposited data

How the results depend on the processing

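None of the 4 fat body genes was called by limma under any of the 15 alternatives, where their adjusted p-values were 0.0626 to 0.994. The lowest was that of *Lsp2* with the replicate block, which left its difference at -0.99 but took its standard error from 1.16 to 0.14. With that block the standard error of *Fbp2* was 0.16 (adjusted p = 0.158, limma) and that of *Fbp1* 0.07 (adjusted p = 0.635, limma). The precision for these 3 genes thus depends on whether the replicate number is modelled. With 1 array omitted, the difference of *Fbp1* ran from -0.95 to 1.17 and that of *Fbp2* from -1.50 to 0.22, both changing sign, that of *Lsp2* from -2.06 to -0.10 and that of *fat-spondin* from 0.79 to 1.58. The median difference ran from -1.23 to 0.70 in those fits. Of the other fat body genes 1 was called after another quantile normalization (*sug*, adjusted p = 0.0331, limma), 1 after median centring (*sug*, adjusted p = 0.0387, limma) and 1 with the replicate block (*kar*, adjusted p = 0.0399, limma). Whether same-numbered arrays were handled together is not given in the sources used here. Their deviations correlated across probe sets at 0.19, -0.23 and 0.29 for replicates 1, 2 and 3. The value for replicate 3 was the highest of any mutant and wild type pair, while mutant replicate 2 correlated best with wild type replicate 1. With 3 arrays in each genotype these correlations cannot settle whether the numbers mark pairs. With the replicate block 300 probe sets were called, as without it, none of them a probe set of the 4 genes. The within-array difference of *Lsp2* and *Fbp1* ran from -1.27 to -0.99 with 1 array left out, chosen after the data were seen. The profile of *Fbp1* alone shared 8 of the 10 nearest genes. Values near the *trp* control level cannot show how low a transcript is.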

Other observations

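*Tsf1*, which encodes the iron carrier transferrin of the hemolymph, has 3 probe sets that gave different pictures. The probe set with the highest mean stood at 11.69, 11.43 and 11.82 in mutant replicates 1, 2 and 3, against 11.63, 11.68 and 11.28 in wild type replicates 1, 2 and 3. Another stood at 7.75, 8.46 and 7.92 in mutant replicates 1, 2 and 3, against 10.24, 8.45 and 7.12 in wild type replicates 1, 2 and 3. In wild type this probe set had the order of *Lsp2*, with a range of 3.12, and in the mutant it did not. The third lay at 3.62 to 3.64 on mutant arrays and 3.61 to 3.82 on wild type arrays, at the level of the *trp* controls. None of the 3 was called by limma.

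None of the muscle and gut genes had replicate 1 as the highest array in both genotypes, and 2 of 9 cuticle genes did, against 17.1% of all probe sets. Of 10 muscle genes, with *Mf* and *Mlc1* the brightest at log2 means of 12.7 and 12.5, none was called, against 1.6% of all probe sets. An unadjusted p under 0.05 in limma was found for 5 of these muscle genes, against 11.8% of all probe sets. Their summed signal was 25649 to 34545 in the mutant and 33185 to 41714 in wild type. Of 9 gut genes none was called and none had an unadjusted p under 0.05 in limma, against 1.6% and 11.8% of all probe sets. *Mal-A1* stood at a log2 mean of 5.72 and *epsilonTry* at 5.57. The summed signal of the gut genes was 241 to 254 in the mutant and 254 to 517 in wild type. Much of the wild type maximum came from 1 gene on 1 array, *Jon65Aiv*, at a log2 value of 7.80 on wild type replicate 3 against 4.41 to 4.59 elsewhere. Of 9 genes of epidermis and trachea 1 was called, against 1.6% of all probe sets. It was *Cpr65Av*, which was 1.04 log2 units higher in the mutant (standard error 0.15, adjusted p = 0.0295, limma). The glue list was led by *Sgs7* and *ng3*, at log2 means of 12.2 and 11.7.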
